A study of Microtus ochrogaster with 40 samples.

Results

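The genes described here are the potassium channel genes of the prairie vole nucleus accumbens. They were chosen by name: a member is a gene whose symbol, in any case, begins with Kcna, Kcnb, Kcnc, Kcnd, Kcnf, Kcng, Kcnh, Kcnj, Kcnk, Kcnq, Kcns, Kcnv, Kcnn, Kcnt or Kcnma. This gave 78 of the 19130 genes listed. Nuclear RNA had been sequenced from single nuclei of the nucleus accumbens, a part of the ventral striatum, in 40 prairie voles (Microtus ochrogaster), with 1 library for each animal. The animals had spent 16 days with a mate, an animal of the opposite sex, or with a peer, an animal of the same sex. Of the females, 11 lived with a mate and 8 with a peer, and of the males, 11 with a mate and 10 with a peer; each such set is 1 group. The labels give no age, no treatment beyond the pairing, and no record of which animals were partners, so 2 animals of 1 cage could both be among those measured without being independent.

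Potassium channels let potassium leave the cell, which sets the resting potential and ends the action potential. Voltage-gated families open on depolarization, inward rectifiers pass current near rest, 2-pore leak channels are open at rest, and other families open on internal calcium or sodium. Medium spiny neurons, the output neurons of the accumbens, are known for a resting state held far from threshold by inward rectifiers and for slowly inactivating potassium currents that delay the first spike. Astrocytes use inward rectifiers to take up potassium released by neurons.

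The 40 libraries held 194518 barcodes, and 178387 nuclei were kept after filters on UMIs (unique molecular identifiers, the counted RNA molecules), mitochondrial RNA and doublets. A library gave from 1767 to 7666 kept nuclei with a median of 4549, and the median nucleus of a library held from 652 to 2150 UMIs. Male mate 2 stood apart: 6375 of its barcodes lay under 500 UMIs, against 0 in each of the other 39 libraries. It also had the lowest depth, and D1 nuclei made up 1.48% of its nuclei (86 nuclei). Glutamate neuron-like nuclei made up 43.9% and D2 nuclei 35.4%, each the highest share of any animal. In female peer 1, 30.6% of nuclei lay in unnamed clusters. Of the barcode sequences, 19903 were seen in more than 1 library, and no library shared more than 1.53% of its barcodes with another single library. Leaving out male mate 2 or female peer 1 changed no call of a named result below. Members were left out of the genes used for clustering, so that the classes of nuclei were not made from them. Clusters were named from marker lists and are called by the name of the list, in the sense of similar to it.

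D1 and D2 medium spiny neuron-like nuclei, the output neurons marked by the dopamine receptor genes Drd1 and Drd2, made up 16.8% and 19.5% of the nuclei. Eccentric medium spiny neuron-like nuclei, a smaller spiny class led by Foxp2, Otof, Tac2 and Pcdh8, made up 8.67%. Glutamate neuron-like nuclei made up 18.1%, from 0.508% to 43.9% of an animal's nuclei. The accumbens itself is not a source of many glutamate neurons, and whether the dissections reached neighbouring tissue was not tested. Interneurons formed a somatostatin class (2.58%), a Vip or Lamp5 class (1.95%) and a cholinergic class (0.570%). The Vip or Lamp5 class bears its name only in part. In a finer clustering 28.6% of its nuclei formed a cluster led by Vip, and 71.1% formed a cluster led by Crabp1, Trh and Kit that stayed unnamed and was nearest to the parvalbumin list. The other classes were immature neurons (1.42%), astrocytes (10.1%), oligodendrocytes (7.02%), oligodendrocyte precursors (2.78%), microglia (2.59%), endothelial nuclei (0.783%) and differentiating oligodendrocytes (0.224%). A further 6.87% of nuclei stayed unnamed.

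A level is given as the CPM, the count scaled to a total of 1000000 UMIs, of the summed nuclei of 1 class in 1 animal, as the mean ± SD over animals. An animal was used for a class with at least 20 of its nuclei. This gave 40 animals for all classes except Vip or Lamp5 interneurons, astrocytes and microglia (39 each), immature neurons (36), endothelial nuclei (30), cholinergic interneurons (25) and a small differentiating oligodendrocyte class (4), which was not tested. Differences between classes are on the log2 scale, were tested within animals by edgeR's quasi-likelihood test with Benjamini-Hochberg adjustment over all genes tested, and are called higher or lower where the adjusted p was under 0.05. "Spiny neurons" as a reference means the average of the D1 and D2 classes. Levels are compared between classes within a gene only, because nuclear UMIs were not set per length of the gene.

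All 78 members had a UMI in at least 1 animal, and 68 passed edgeR's filter on low counts in the sum over all nuclei. The 10 that did not pass had 1 to 290 UMIs in all 40 animals together. By family, the filter passed 6 of 8 Kv1 genes, 3 of 3 beta subunits, 2 of 2 Kv2, 4 of 4 Kv3, 3 of 3 Kv4, 5 of 5 Kv7 and 8 of 8 genes of the EAG, ERG and ELK group. It passed 8 of 10 silent modifiers, 12 of 15 inward rectifiers, 10 of 13 2-pore leak channels, 4 of 4 calcium-activated SK and IK genes, 2 of 2 sodium-activated genes and the BK channel gene. Members together took 0.636% ± 0.0244 (SD, n = 40) of the UMIs of D1 nuclei and 0.612% ± 0.0267 (SD, n = 40) of those of D2 nuclei. Their share was 0.564% in glutamate neurons, 0.424% in oligodendrocytes, 0.195% in astrocytes and 0.149% in microglia.

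Ranked by mean level over classes, among members with at least 1000 UMIs, 12 were highest in glutamate neurons, 10 in eccentric spiny neurons, 9 in D1 neurons, 8 in Vip or Lamp5 interneurons, 7 in cholinergic interneurons and 6 in somatostatin interneurons. Outside neurons, 3 were highest in oligodendrocytes, 3 in microglia, and 1 each in astrocytes, endothelial nuclei and oligodendrocyte precursors, while 2 ranked first in the differentiating oligodendrocyte class, which rests on 4 animals. Many first places were narrow: for 50 of the 63 members ranked, the highest and the next mean lay no further apart than the sum of their SDs. The heat map of the members' levels sets these side by side.

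**Figure D1:**
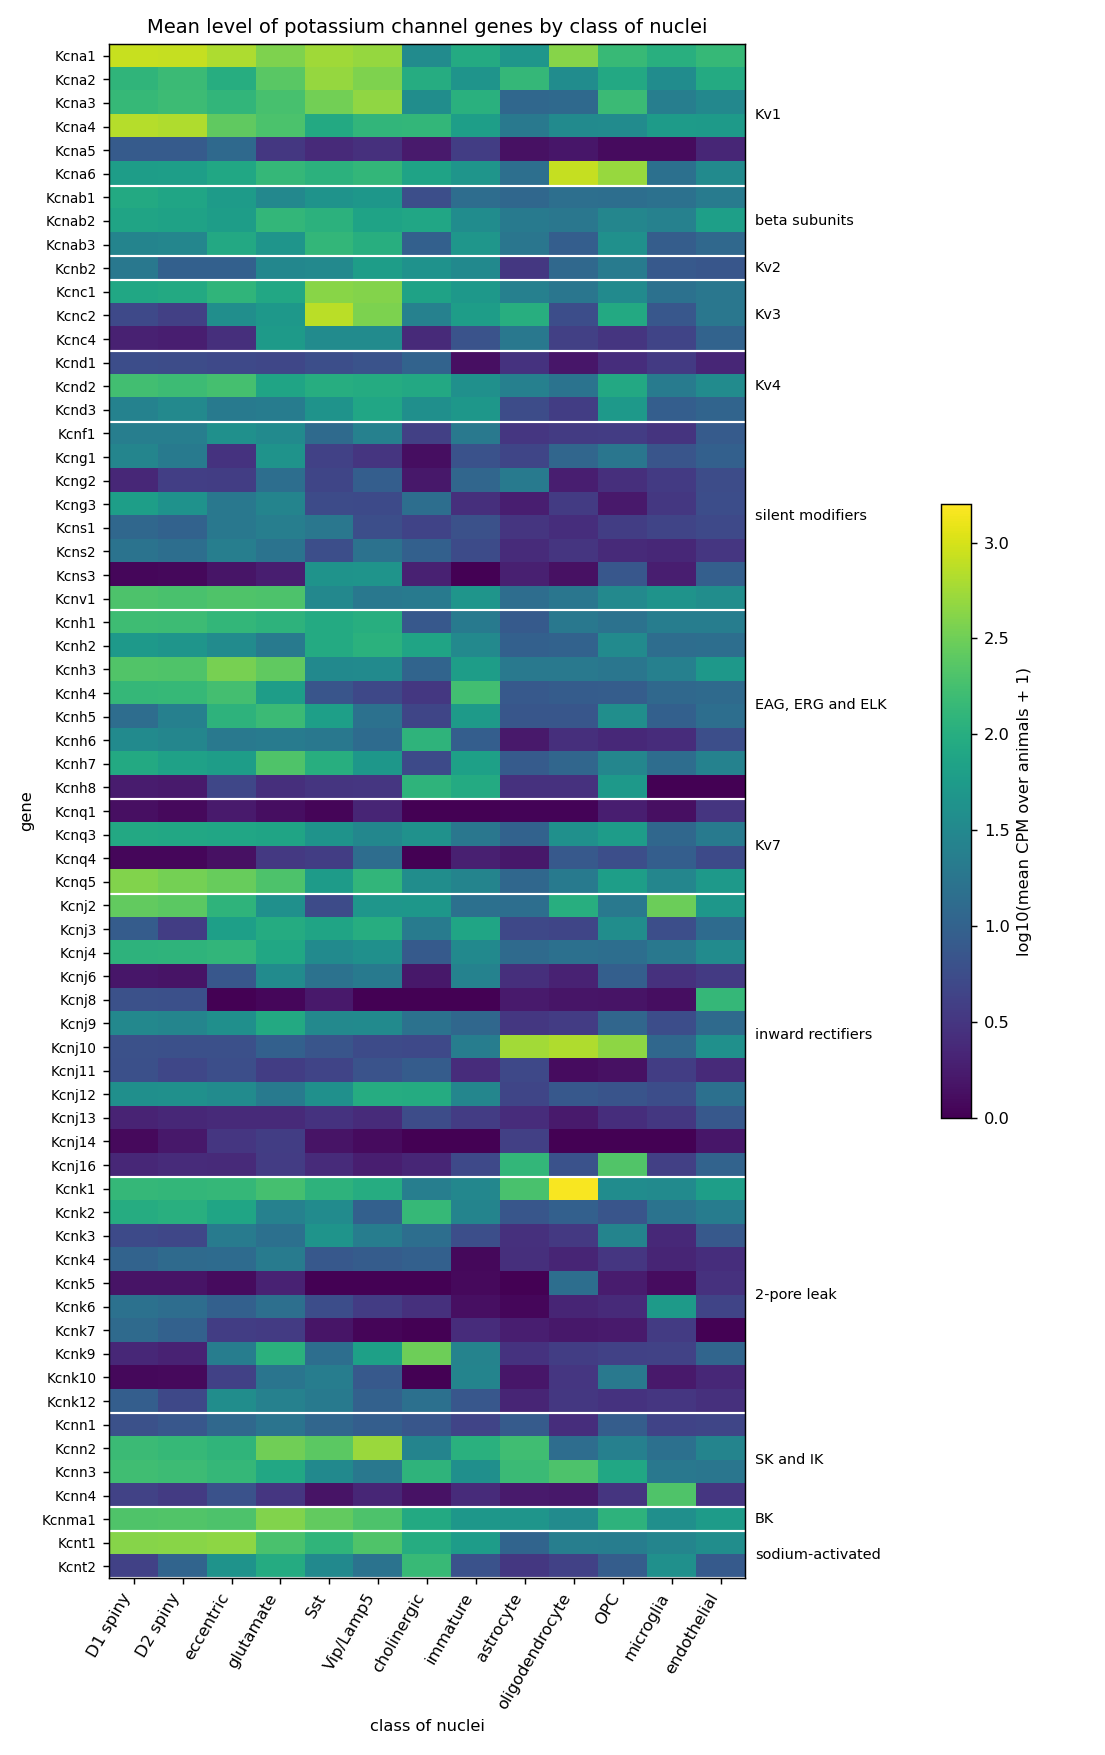
Mean level over animals of the members that passed the filter and are reported here (rows, grouped by family) in 13 classes of nuclei (columns), as log10 of CPM + 1. Kcnj10 is bright in the astrocyte, oligodendrocyte and precursor columns, Kcnc2 in the somatostatin and Vip or Lamp5 columns and Kcna4 in the D1 and D2 columns.

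Set against D1 and D2 spiny neurons, the other neuron classes had members higher and members lower. In glutamate neurons 31 of 57 tested members were higher and 23 lower, against 43% and 43.1% of all genes tested. In eccentric spiny neurons 23 of 51 tested members were higher and 25 lower, against 32.6% and 31.5% of all genes tested. Somatostatin interneurons had 25 higher and 27 lower of 54 tested members, with 39.1% and 40.7% over all genes. Vip or Lamp5 interneurons had 21 higher and 28 lower of 53, with 36.1% and 39.2% over all genes. Those shares lie near or moderately above the background. Cholinergic interneurons had more lower than higher members, with 35 lower and 12 higher of 55 (39.1% and 25.5% over all genes). So did immature neurons, with 38 lower and 7 higher of 49 (43.2% and 25.8% over all genes). The median log2 difference of the members was 0.29 in glutamate neurons, -0.01 in eccentric neurons, -0.18 in somatostatin, -0.30 in Vip or Lamp5 and -1.41 in cholinergic interneurons. Over all genes tested, the medians lay between -0.15 and 0.01 in those 5 classes.

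In classes that are not neurons, most members were lower than in spiny neurons. Astrocytes had 40 lower and 7 higher of 48 tested members, against 44.6% and 42.4% of all genes. Oligodendrocytes had 40 lower and 4 higher of 46 (43.9% and 42.6% of all genes). Oligodendrocyte precursors had 38 lower and 12 higher of 52 (43.1% and 33.5%). Microglia had 41 lower and 4 higher of 45 (49.8% and 30.7%), and endothelial nuclei 42 lower and 3 higher of 48 (46.8% and 30.9%). The members' median log2 difference was -2.89 in astrocytes, -2.78 in oligodendrocytes, -1.73 in precursors, -2.90 in microglia and -2.09 in endothelial nuclei. Over all genes tested it lay between -0.29 and -0.02. A member enters such a count only if its counts passed the filter, so the counts describe the members measured and not the whole family. Without the filter, 15 of 77 members were higher in astrocytes (32.6% of all genes), 12 of 77 in oligodendrocytes (26.6%), 9 of 77 in microglia (24.2%), 12 of 78 in endothelial nuclei (27.5%) and 11 of 77 in immature neurons (19.5%). With at least 1000 UMIs per nucleus, 7 of 50 members were higher in precursors (22.1% of all genes). Of the 63 members tested in these contrasts, 15 did not pass the filter for the comparison of D1 with D2. They entered a contrast through their counts in the other class, and 13 of them were called higher in at least 1 class, among them 9 of the 31 higher in glutamate neurons and 6 of the 12 in precursors. Differences of these members are given below as descriptions, with no p. Members near 0 in the other class, such as Kcng1 in eccentric and Kcnj2 in somatostatin nuclei, entered through their spiny counts. Their differences are descriptions too.

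A list of 7 genes known from neurons (Celf4, Elavl4, Grin1, Rbfox3, Snap25, Stmn2 and Syt1) gives the scale of neuronal RNA in the same classes. Its median log2 difference from spiny neurons was -2.52 in astrocytes, -2.06 in oligodendrocytes, -2.14 in precursors, -1.97 in microglia and -1.02 in endothelial nuclei. The 7 genes ranged widely around it, from -4.32 to 0.13 in astrocytes, -3.57 to 2.59 in microglia and -3.22 to 4.25 in precursors. Elavl4 departed from the rest, at 6.02 CPM in D1 and 19.8 in D2 nuclei against 215 in precursors. Of the tested members, 27 of 48 in astrocytes, 31 of 46 in oligodendrocytes, 24 of 52 in precursors, 35 of 45 in microglia and 40 of 48 in endothelial nuclei lay as low as that median or lower. Grin1, which encodes a glutamate receptor subunit of neurons, averaged 84.1 CPM in astrocytes against 1847 in D1 nuclei. RNA carried over between droplets was not removed, and its part in the low levels of neuronal members in glia was not tested.

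The Kv1 genes encode channels that open at low voltage, mostly in axons, and Kcna1 and Kcna4 were highest in spiny neurons. Kcna1 averaged 849 ± 88.7 CPM (lowest 662, median 843, highest 1117) in D1 and 838 ± 73.3 CPM (lowest 704, median 837, highest 1071) in D2 nuclei. It was lower in every other class, from -0.38 in eccentric neurons and -0.68 in somatostatin interneurons to -4.04 in astrocytes and -4.84 in cholinergic interneurons. In cholinergic interneurons it averaged 33.6 ± 26.5 CPM (lowest 0, median 26.4, highest 95.4) (SE 0.11, edgeR adjusted p = 4.5e-67), with no overlap between the animals' values and those of either spiny class. Oligodendrocytes held Kcna1 at 415 ± 208 CPM (lowest 159, median 352, highest 1038), a wide range that overlapped the D1 values in its highest animals.

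Kcna4, the Kv1 gene for a fast-inactivating channel, stood out more sharply in spiny neurons. It averaged 698 ± 56.3 CPM (lowest 533, median 705, highest 816) in D1 and 649.6 ± 53.8 CPM (lowest 535, median 637, highest 756) in D2 nuclei. Eccentric neurons had 259 ± 39.2 CPM (lowest 187, median 254, highest 335) (log2 difference -1.38, SE 0.03, edgeR adjusted p = 9.5e-76), and glutamate neurons had 197 ± 29.9 CPM (lowest 130.4, median 196, highest 256) (log2 difference -1.83, SE 0.03, edgeR adjusted p = 1.0e-77). No animal's value in those classes reached the lowest D1 or D2 value. Somatostatin interneurons were lower still, at 87.5 ± 24.1 CPM (log2 difference -3.07, SE 0.04, edgeR adjusted p = 1.1e-94).

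Kcna2 and Kcna3 went the other way in the somatostatin and Vip or Lamp5 classes, where both were higher than in spiny neurons, while in cholinergic interneurons both were lower (log2 differences -0.81 and -2.15). Kcna2, a partner of Kcna1 in axonal channels, averaged 488 ± 84.4 CPM (lowest 340.0, median 484, highest 674) in somatostatin interneurons against 124 ± 27.6 in D1 and 150.0 ± 28.1 in D2 nuclei (log2 difference 1.73, SE 0.04, edgeR adjusted p = 1.3e-69). The ranges did not overlap. Kcna3, a Kv1 gene well known from lymphocytes, averaged 463 ± 59.0 CPM in Vip or Lamp5 and 330.3 ± 47.9 CPM in somatostatin interneurons, against 139.5 ± 27.0 in D1 and 157 ± 23.2 in D2 nuclei. Kcna6 was the Kv1 gene of the oligodendrocyte lineage. It averaged 821 ± 175 CPM (from 319 to 1110) in oligodendrocytes and 504 ± 112 CPM (lowest 292, median 529.6, highest 696) in precursors, against 59.4 ± 11.5 in D1 nuclei. Neither range overlapped the D1 values, and the log2 differences from spiny neurons were 4.06 and 3.03 (edgeR adjusted p = 1.6e-101 and 2.7e-90). Kcna5, a further Kv1 gene, averaged 7.22 ± 3.90 CPM in D1 and 11.3 ± 4.68 in eccentric nuclei (log2 difference 0.68).

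The beta subunits bind Kv1 channels inside the cell and can speed their inactivation. Kcnab1 averaged 85.9 ± 18.9 CPM in D1 and 74.8 ± 16.5 in D2 nuclei, its highest classes, and 30.6 ± 8.69 in glutamate neurons. Kcnab3 was highest in somatostatin interneurons at 129 ± 33.0 CPM (lowest 66.7, median 128, highest 218), against 26.5 ± 9.40 in D1 nuclei (log2 difference 2.16, SE 0.06, edgeR adjusted p = 1.9e-60). Eccentric neurons also had more Kcnab3 than the other spiny classes, at 85.6 ± 19.6 CPM (lowest 40.2, median 86.4, highest 139) (log2 difference 1.70). Its somatostatin values lay above every D1 value.

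Kv2 channels carry the delayed rectifier current of the cell body, and silent modifier subunits form channels only together with them. The Kv2 gene Kcnb2 averaged 58.8 ± 20.2 CPM (lowest 24.6, median 59.9, highest 98.7) in Vip or Lamp5 interneurons (log2 difference 2.03, SE 0.10, edgeR adjusted p = 1.1e-37), 41.9 ± 26.6 in cholinergic interneurons, 18.3 ± 5.21 in D1 and 8.61 ± 3.84 in D2 nuclei. Cholinergic interneurons were also higher than spiny neurons in Kcnb2 (edgeR adjusted p = 3.9e-09).

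Among the silent modifiers, Kcnv1 was shared by the spiny and glutamate classes, at 192 ± 37.0 CPM in D2, 209.6 ± 40.9 in eccentric and 199 ± 37.5 in glutamate nuclei. It fell to 30.4 ± 13.7 in somatostatin and 18.1 ± 11.4 in Vip or Lamp5 interneurons (log2 differences -2.87 and -3.62). Among spiny classes, Kcng1 and Kcng3 were higher in D1 and D2 than in eccentric neurons, while Kcng1 was highest in glutamate neurons, at 42.8 ± 12.9 CPM. Kcng1 averaged 27.6 ± 7.81 CPM (lowest 10.2, median 29.3, highest 45.9) in D1 nuclei and 1.93 ± 1.71 CPM (lowest 0, median 1.62, highest 5.75) in eccentric nuclei (log2 difference -3.57). The values did not overlap. Kcng3 averaged 61.4 ± 13.0 in D1, 41.5 ± 10.8 in D2 and 17.9 ± 8.17 in eccentric nuclei (log2 difference -1.44).

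Kcnf1 and Kcns2 had the reverse order, with 39.6 ± 12.1 and 22.2 ± 10.6 CPM in eccentric nuclei against 22.2 ± 5.03 and 15.4 ± 3.79 in D1 nuclei (log2 differences 0.87 and 0.76). Kcns3 had 11 UMIs in all D1 nuclei and 12 in all D2 nuclei. In somatostatin interneurons it averaged 42.6 ± 18.4 CPM (lowest 4.64, median 38.4, highest 86.0), and in Vip or Lamp5 interneurons 44.8 ± 18.0 CPM (lowest 13.6, median 42.4, highest 85.7). Cholinergic interneurons had 2 Kcns3 UMIs in all 25 animals. Values of the former classes lay above every D1 value. With so few UMIs in spiny neurons no size of difference is given.

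The Kv3 genes encode fast delayed rectifiers that allow brief spikes and fast firing, and Kcnc1, Kcnc2 and Kcnc4 were higher in the somatostatin and the Vip or Lamp5 class than in spiny neurons. Of these, Kcnc2 had the largest difference in both. It averaged 4.11 ± 2.93 CPM (lowest 0, median 3.66, highest 13.6) in D1 and 3.04 ± 2.04 CPM (lowest 0, median 2.73, highest 9.18) in D2 nuclei, and 738 ± 166 CPM (lowest 129, median 764, highest 1017) in somatostatin interneurons (log2 difference 7.47). Vip or Lamp5 interneurons had 368 ± 90.5 CPM (lowest 223, median 376, highest 646) (log2 difference 6.48). Neither class overlapped the spiny values. Kcnc1 averaged 422 ± 107 CPM (lowest 220.0, median 413, highest 681) and 408 ± 92.8 CPM (lowest 279, median 397, highest 714) in these classes, against 79.1 ± 12.4 CPM (lowest 54.3, median 78.0, highest 112) in D1 nuclei (log2 differences 2.27 and 2.23). Again no animal's values crossed.

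Kcnc4, the Kv3 gene for an inactivating channel, was nearly absent from spiny neurons, with 66 UMIs in all D1 nuclei. It averaged 54.6 ± 7.25 CPM (lowest 33.6, median 55.0, highest 72.7) in glutamate neurons (log2 difference 5.76). All glutamate values lay above the D1 values. Cholinergic interneurons were mixed: Kcnc1 averaged 68.0 ± 36.5 there and was lower than in spiny neurons (log2 difference -0.61), while Kcnc2, at 24.7 ± 26.8, was higher (2.61).

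Kcnc2 was also higher in some glia. Astrocytes had 100.1 ± 25.1 CPM (lowest 43.6, median 94.9, highest 156) (log2 difference 4.87) and oligodendrocyte precursors 86.5 ± 32.8 CPM (lowest 24.2, median 86.1, highest 172) (log2 difference 4.37). Oligodendrocytes and microglia, measured in the same libraries, had 4.68 ± 5.76 and 6.31 ± 10.6 CPM. So the astrocyte and precursor levels were not shared by all glia, and both lay above every D1 value.

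Kv4 channels carry the A-type current of dendrites, which inactivates fast. Kcnd2 averaged 170.0 ± 42.8 CPM (lowest 99.8, median 166, highest 323) in D1, 154 ± 34.9 in D2 and 179.7 ± 46.3 in eccentric nuclei, and 72.5 ± 16.4 in glutamate neurons (log2 difference -1.19, SE 0.03, edgeR adjusted p = 1.5e-54). The 3 spiny classes overlapped over most of their ranges. Kcnd3 was highest in Vip or Lamp5 interneurons, at 77.7 ± 25.0 CPM (lowest 39.8, median 75.9, highest 138) against 25.4 ± 6.28 in D1 nuclei (log2 difference 1.34, SE 0.07, edgeR adjusted p = 4.8e-34).

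The EAG, ERG and ELK genes encode a further group of voltage-gated channels. Kcnh5, an EAG gene, averaged 149 ± 53.3 CPM (lowest 47.4, median 147, highest 296) in glutamate and 117 ± 34.7 CPM (lowest 45.9, median 116, highest 223) in eccentric nuclei, against 12.9 ± 5.14 CPM (lowest 4.76, median 12.3, highest 28.1) in D1 nuclei (log2 differences 3.03 and 2.79). Neither overlapped the D1 values. Kcnh1, the other EAG gene, averaged 159.6 ± 25.3 in D1 and 154 ± 24.8 in D2 nuclei and 6.58 ± 8.09 in cholinergic interneurons (log2 difference -4.83). Kcnh7, an ERG gene, was highest in glutamate neurons at 209.5 ± 35.7 CPM (lowest 120.5, median 209.7, highest 278), against 87.1 ± 12.0 in D1 nuclei (log2 difference 1.41, SE 0.04, edgeR adjusted p = 1.0e-56).

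In cholinergic interneurons, Kcnh6 and Kcnh8 of this family were higher than in spiny neurons. Kcnh6, another ERG gene, averaged 118 ± 59.8 CPM (lowest 58.1, median 99.9, highest 294) there against 33.3 ± 10.2 in D1 nuclei (log2 difference 1.64, SE 0.12, edgeR adjusted p = 9.9e-23). Kcnh8, an ELK gene with 62 UMIs in all D1 and 44 in all D2 nuclei, averaged 118 ± 56.0 CPM (lowest 32.2, median 100.1, highest 241) (log2 difference 6.87). The Kcnh8 values lay above every D1 value. Immature neurons also had Kcnh8, at 88.8 ± 53.8 CPM (lowest 0, median 84.3, highest 276) (log2 difference 6.39), and so did oligodendrocyte precursors, at 52.6 ± 28.7 CPM (lowest 9.31, median 49.9, highest 151) (log2 difference 5.83). The ELK genes Kcnh3 and Kcnh4 were lower in cholinergic interneurons. Kcnh4 averaged 2.29 ± 5.54 CPM there (log2 difference -5.94). It averaged 136 ± 31.6 in D1, 176 ± 43.6 in eccentric and 168 ± 81.1 in immature nuclei, and 3.92 ± 5.61 in Vip or Lamp5 interneurons, where 19 of 39 animals had no UMI (log2 difference -5.40). Kcnh3 averaged 354 ± 47.1 in eccentric nuclei and 9.81 ± 16.3 in cholinergic interneurons (log2 difference of the latter -4.90).

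Kv7 channels carry the M current, which acetylcholine closes. Of their genes, Kcnq3 and Kcnq5 were lower in each of the 11 other classes than in spiny neurons. Kcnq5 fell among neurons from 391 ± 31.5 in D1 to 55.9 ± 20.1 in somatostatin and 36.1 ± 29.2 in cholinergic interneurons (log2 differences -2.78 and -3.73). Kcnq3 varied less, with 84.9 ± 17.4 in D1, 77.2 ± 13.8 in eccentric and 72.1 ± 14.2 in glutamate nuclei. The ranges of these 3 classes overlapped, and the log2 differences were -0.12 (edgeR adjusted p = 0.0065) and -0.27. In oligodendrocytes and precursors the log2 differences of Kcnq3 were -0.83 and -0.57.

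Inward rectifiers differed sharply between classes. The strong rectifiers of the Kir2 group hold spiny neurons at rest, and Kcnj2 averaged 266 ± 30.6 CPM (lowest 154, median 267, highest 344) in D1 and 246 ± 25.7 CPM (lowest 195, median 246, highest 321) in D2 nuclei. Eccentric neurons had 121 ± 23.6 CPM (lowest 80.4, median 121, highest 174) (log2 difference -1.06) and glutamate neurons 39.7 ± 12.3 CPM (lowest 14.4, median 38.9, highest 81.8) (log2 difference -2.73, SE 0.05, edgeR adjusted p = 9.3e-71). No glutamate value reached the spiny range. In somatostatin interneurons Kcnj2 averaged 4.42 ± 4.24 CPM (lowest 0, median 3.69, highest 17.8), with no UMI in 11 of 40 animals (log2 difference -6.04). Microglia were the class outside neurons with a like level, at 301 ± 124 CPM (lowest 29.0, median 285, highest 579), and the difference from spiny neurons was small (log2 difference 0.15, SE 0.07, edgeR adjusted p = 0.03). Other normalization (adjusted p = 0.058) or no filter on low counts (adjusted p = 0.504) ended that call. Kcnj4, another Kir2 gene of spiny neurons, averaged 117 ± 21.4, 119.5 ± 20.7 and 125 ± 26.5 in the D1, D2 and eccentric classes and 7.11 ± 9.64 in cholinergic interneurons (log2 difference of the last -4.33).

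**Figure D2:**
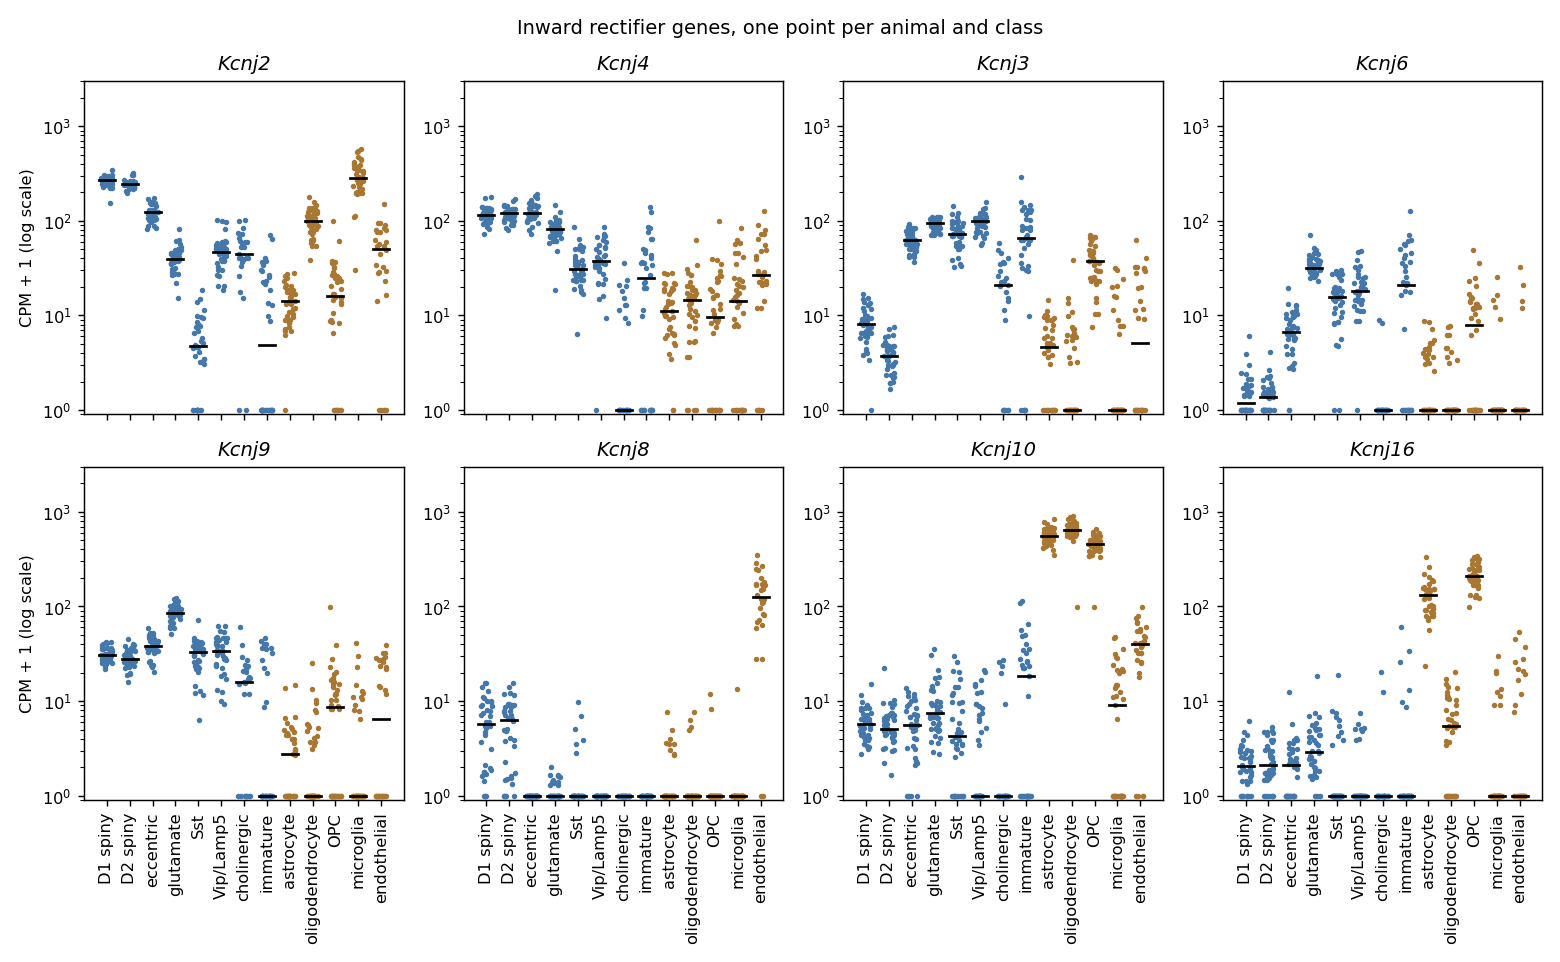
Levels of inward rectifier genes by class, each point 1 animal, on a log axis of CPM + 1, with bars at the median (blue, neurons; brown, other classes). Kcnj2 is high in D1, D2 and microglia, Kcnj3 in eccentric, glutamate and interneuron classes, and Kcnj10 in astrocytes, oligodendrocytes and precursors.

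G protein-gated inward rectifiers open when transmitters act on receptors coupled to inhibitory G proteins. Of their genes, Kcnj3 and Kcnj6 were low in D1 and D2 neurons. Kcnj3 averaged 7.47 ± 3.59 CPM (lowest 0, median 7.12, highest 15.8) in D1 and 2.86 ± 1.43 CPM (lowest 0.678, median 2.71, highest 6.46) in D2 nuclei. It averaged 62.8 ± 14.4 CPM (lowest 36.1, median 61.8, highest 90.8) in eccentric neurons (log2 difference 3.75) and 90.9 ± 12.3 CPM (lowest 69.7, median 93.8, highest 109.9) in glutamate neurons (log2 difference 4.23). Neither class overlapped the D1 values. Vip or Lamp5 and somatostatin interneurons had 96.6 ± 21.8 and 73.9 ± 25.0 (log2 differences 4.22 and 3.84). Immature neurons, oligodendrocyte precursors and endothelial nuclei also had more Kcnj3 than spiny neurons. Kcnj6, a partner subunit, had 41 UMIs in all D1 and 33 in all D2 nuclei, and averaged 34.0 ± 8.82 CPM (lowest 22.0, median 31.0, highest 69.7) in glutamate neurons (log2 difference 5.78). Every glutamate value exceeded the D1 values. Kcnj9 was less divided, with 30.5 ± 5.19 in D1, 27.9 ± 6.29 in D2 and 85.6 ± 17.3 CPM (lowest 50.0, median 84.6, highest 123) in glutamate nuclei (log2 difference 1.52, SE 0.04, edgeR adjusted p = 4.5e-57).

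Kcnj10, the inward rectifier by which glia take up potassium, averaged 564 ± 106 CPM (lowest 352, median 560.0, highest 831) in astrocytes, 655 ± 134 CPM (lowest 98.0, median 639, highest 896) in oligodendrocytes and 458 ± 97.2 CPM (lowest 97.4, median 453, highest 653) in precursors. D1 nuclei had 5.16 ± 2.46 CPM (lowest 1.77, median 4.70, highest 14.0). The glial and D1 ranges did not overlap, with log2 differences of 7.04, 7.39 and 6.49 from spiny neurons. Kcnj16, whose product pairs with that of Kcnj10, divided the glia. It averaged 131 ± 57.6 CPM (lowest 22.5, median 129.9, highest 329) in astrocytes and 216 ± 61.0 CPM (lowest 97.4, median 207, highest 339.7) in precursors, but 5.34 ± 5.22 CPM (lowest 0, median 4.41, highest 19.5) in oligodendrocytes. The oligodendrocyte values lay below all those of astrocytes and precursors. Microglia had 10.8 ± 13.2 CPM of Kcnj10 and 3.03 ± 6.80 of Kcnj16.

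Kcnj8, a pore subunit of ATP-sensitive channels known from vessel walls, averaged 135 ± 84.7 CPM (lowest 0, median 126, highest 346) in endothelial nuclei (log2 difference 4.79, SE 0.24, edgeR adjusted p = 1.3e-34). That class was also led by Vtn and Atp13a5, genes known from pericytes. In the finer clustering 66.1% of its nuclei fell in an endothelial-like cluster, with Kcnj8 at 108 ± 71.1 CPM (n = 21), and 32.9% in a mural or fibroblast-like cluster, with 129 ± 182 CPM (n = 10). Atp13a5 was still among the leading genes of that endothelial-like cluster, so the split does not assign Kcnj8 to endothelial cells alone. Both spiny classes carried a low level, at 5.19 ± 4.20 CPM (lowest 0, median 4.69, highest 14.6) in D1 and 4.96 ± 3.99 CPM (lowest 0, median 5.31, highest 14.7) in D2 nuclei, from 373 and 351 UMIs. Eccentric nuclei had 0 UMIs of 27294398, so the level was at least 47.7-fold lower than in spiny neurons, with 3 UMIs as the floor over the class. Vip or Lamp5 interneurons also had 0 UMIs (at least 14.4-fold lower), and glutamate neurons had 11 UMIs (log2 difference -4.70). These bounds cover counting error only.

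Leak channels of the 2-pore group set the resting conductance, and its members differed in the classes that held them. Kcnk1, which encodes a weak background channel, averaged 1487 ± 383 CPM (lowest 551, median 1467, highest 2380) in oligodendrocytes, against 136 ± 24.7 in D1 and 131 ± 26.2 in D2 nuclei (log2 difference 3.75, SE 0.04, edgeR adjusted p = 4.6e-99). No values overlapped. Astrocytes had 191 ± 79.0 CPM (lowest 76.5, median 176, highest 399) (log2 difference 0.68, SE 0.07, edgeR adjusted p = 4.4e-16). Kcnk2, a mechanically gated leak channel gene, averaged 94.2 ± 13.1 in D1, 103 ± 15.2 in D2 and 137 ± 68.9 in cholinergic nuclei (log2 difference 0.25, SE 0.11, edgeR adjusted p = 0.044). It was lower in Vip or Lamp5 interneurons and glutamate neurons (log2 differences -3.51 and -2.06).

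Kcnk9, an acid-sensitive leak channel gene, had 91 UMIs in all D1 and 69 in all D2 nuclei. Cholinergic interneurons had 309.9 ± 122 CPM (lowest 151, median 276, highest 608) (log2 difference 7.71), glutamate neurons 111 ± 19.2 CPM (lowest 63.5, median 111, highest 151) (log2 difference 6.46) and Vip or Lamp5 interneurons 64.8 ± 21.0 (log2 difference 5.61). All cholinergic and glutamate values lay above the D1 values. Kcnk10, a mechanically gated relative of Kcnk2, had 13 UMIs in each of the D1 and D2 classes and averaged 21.8 ± 10.6 CPM in somatostatin and 16.4 ± 6.54 in glutamate nuclei, again with too few spiny UMIs for a size of difference. Kcnk12 was highest in eccentric neurons, at 35.9 ± 14.8 against 7.98 ± 3.57 in D1 nuclei (log2 difference 2.66, SE 0.08, edgeR adjusted p = 3.9e-56). Kcnk6 was highest in microglia, at 54.2 ± 28.2 CPM (lowest 0, median 56.5, highest 114) against 14.8 ± 5.22 in D1 nuclei (log2 difference 2.02, SE 0.15, edgeR adjusted p = 2.4e-24). Kcnk7 averaged 11.9 ± 4.53 in D1 and 8.99 ± 3.69 in D2 nuclei, and had 0 UMIs in cholinergic and endothelial nuclei (at least 7.10-fold and 7.21-fold lower) and 1 UMI in Vip or Lamp5 interneurons. Kcnk13 was not found among the gene names.

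Channels opened by internal sodium or calcium also divided the classes. Kcnt1, a sodium-activated channel gene, averaged 418 ± 46.3 CPM (lowest 314, median 408, highest 561) in D1 and 425 ± 40.4 in D2 nuclei and 448 ± 48.7 in eccentric neurons (log2 difference 0.11). It was lower in somatostatin interneurons, at 124 ± 29.8, and astrocytes, at 9.77 ± 5.21 (log2 differences -1.87 and -5.24). Kcnt2, the other gene of that family, had a different order. It averaged 3.15 ± 2.54 in D1 and 9.61 ± 3.33 in D2 nuclei, 42.9 ± 10.5 in eccentric and 91.3 ± 19.1 in glutamate neurons, and 141 ± 48.9 CPM (lowest 39.4, median 132, highest 243) in cholinergic interneurons (log2 difference 4.52, SE 0.15, edgeR adjusted p = 8.9e-50). Microglia had Kcnt2 at 39.8 ± 27.3 CPM (lowest 0, median 38.3, highest 103) (log2 difference 3.03, SE 0.20, edgeR adjusted p = 4.5e-28).

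The BK channel gene Kcnma1, whose channel needs both calcium and voltage, was highest in glutamate neurons, at 387 ± 46.7 CPM (lowest 277, median 390.0, highest 488) against 209.8 ± 24.2 in D1 nuclei (log2 difference 0.82, SE 0.02, edgeR adjusted p = 3.4e-59). Cholinergic interneurons had 87.2 ± 36.2 (log2 difference -1.48, SE 0.10, edgeR adjusted p = 2.3e-26). Of the SK genes, whose channels give the pause after a spike, Kcnn2 averaged 517 ± 151 CPM (lowest 277, median 512, highest 884) in Vip or Lamp5 interneurons and 319 ± 93.3 in glutamate neurons, against 152 ± 24.4 in D1 nuclei (log2 differences 1.69 and 1.08). Kcnn3 was low in the same Vip or Lamp5 class, at 18.0 ± 11.7 against 163 ± 24.3 in D1 nuclei (log2 difference -3.26, SE 0.09, edgeR adjusted p = 9.3e-64). It was at 120.4 ± 63.6 in cholinergic interneurons, at 150.5 ± 44.3 in astrocytes and at 203 ± 171 CPM (lowest 23.7, median 118, highest 615) in oligodendrocytes. Kcnn4, the IK gene of blood and immune cells, averaged 207 ± 108 CPM (lowest 0, median 201, highest 473) in microglia against 3.27 ± 2.31 in D1 nuclei (log2 difference 6.18). At least 1 animal had no Kcnn4 UMI in microglia, so the ranges touched.

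D1 and D2 neurons, which differ in their dopamine receptor and their targets, had nearly equal levels of most potassium channel genes and differed by more in a few, such as Kcnb2, Kcnk12, Kcnt2 and Kcnh5. In the largest D2 cluster, the means of Kcnt2 and Kcnh5 were not above those of the D1 class. Both genes were high in a smaller D2 cluster described below. Of 48 tested members, 21 were higher and 11 lower in D1, against 15.6% and 14.3% of all genes tested. Both shares of members lay above those of all genes. The members' median log2 difference was 0.04, beside 0.00 over all genes. Most called differences were small: Kcnd2 was 0.10 log2 higher in D1, and Kcnt1 was -0.04. Kcna1 (0.00, interval -0.03 to 0.03) and Kcnma1 (-0.03, interval -0.07 to 0.00) were not called.

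Among the members that passed the filter, those higher in D1 were led by Kcnb2 and Kcnk12. Kcnb2, the Kv2 gene described above, averaged 18.3 ± 5.21 CPM (lowest 9.60, median 18.8, highest 33.7) in D1 and 8.61 ± 3.84 CPM (lowest 2.15, median 7.95, highest 22.5) in D2 nuclei, and was higher in D1 in 39 of 40 animals (log2 difference 1.06, SE 0.07, edgeR adjusted p = 6.3e-25). Kcnk12, a leak channel gene, averaged 7.98 ± 3.57 CPM (lowest 0.855, median 8.35, highest 17.6) and 3.90 ± 2.04 CPM (lowest 0, median 3.93, highest 9.42), and was higher in D1 in 39 of 40 animals (log2 difference 1.04). It passed the filter mainly through its D1 counts, so its difference is a description with no p. The ranges over animals overlapped for Kcnb2 and Kcnk12, while the within-animal difference had nearly always the same sign. Silent modifiers followed: Kcng3 averaged 61.4 ± 13.0 CPM (lowest 28.1, median 60.7, highest 101) and 41.5 ± 10.8 CPM (lowest 23.7, median 39.2, highest 66.9) (higher in D1 in 38 of 40 animals, log2 difference 0.61, SE 0.04, edgeR adjusted p = 5.7e-24). Kcng1 averaged 27.6 ± 7.81 and 20.0 ± 5.65 (higher in D1 in 36 of 40 animals, log2 difference 0.44, SE 0.05, edgeR adjusted p = 3.8e-12). The ERG gene Kcnh7 averaged 87.1 ± 12.0 and 66.2 ± 13.7 (higher in D1 in 40 of 40 animals, log2 difference 0.37, SE 0.03, edgeR adjusted p = 2.0e-17), and Kcnk7 11.9 ± 4.53 and 8.99 ± 3.69 (higher in D1 in 31 of 40 animals, log2 difference 0.46). The M current gene Kcnq5 averaged 391 ± 31.5 and 340.0 ± 39.8, a difference of 0.19 that was higher in D1 in 40 of 40 animals.

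Among the members that passed the filter, those lower in D1 were led by Kcnt2 and Kcnh5. Kcnt2 averaged 3.15 ± 2.54 CPM (lowest 0, median 2.56, highest 14.0) in D1 and 9.61 ± 3.33 CPM (lowest 4.70, median 8.49, highest 17.5) in D2 nuclei (lower in D1 in 39 of 40 animals, log2 difference -1.72). It passed the filter mainly through its D2 counts, so its difference is a description with no p. Kcnh5 averaged 12.9 ± 5.14 CPM (lowest 4.76, median 12.3, highest 28.1) and 23.4 ± 7.96 CPM (lowest 12.2, median 21.8, highest 42.7) (lower in D1 in 35 of 40 animals, log2 difference -0.92, SE 0.07, edgeR adjusted p = 1.8e-19). Then came Kcnn1, an SK gene (5.29 ± 2.72 and 6.33 ± 2.65, log2 difference -0.32), Kcnd3, a Kv4 gene (25.4 ± 6.28 and 31.0 ± 6.71, -0.30), Kcna2, a Kv1 gene (124 ± 27.6 and 150.0 ± 28.1, -0.28), and Kcnk4, a leak channel gene (9.58 ± 3.91 and 11.7 ± 2.84, -0.26). D1 and D2 ranges overlapped for all 6. Among members that did not pass the filter, Kcnj3 (7.47 and 2.86 CPM) was higher in D1 in 37 of 40 animals, and Kcng2 (1.24 and 2.97 CPM) was lower in D1 in 35 of 40. Both were singled out after their values were seen and have no test here.

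**Figure D3:**
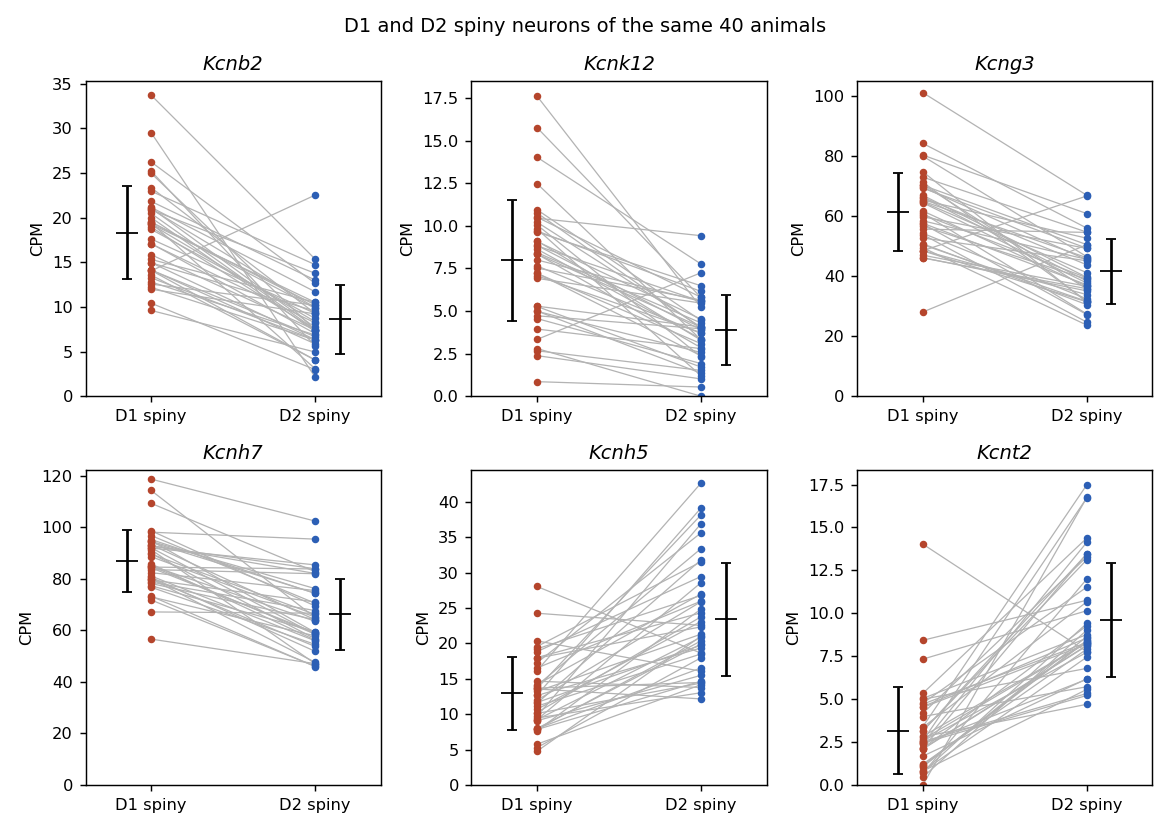
Levels of 6 members in D1 and D2 nuclei in CPM, each line joining the values of the same animal, with bars at the mean ± SD over 40 animals. Lines fall from D1 to D2 for Kcnb2 in 39 of 40 animals and rise for Kcnt2 in 39 of 40.

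Some of these differences depended on cluster 11, a D2 cluster led by Cpne7, Gpr6, Drd2, Col6a2 and Htr2a. In an alternative chosen after seeing the data, D1 was compared with D2 without cluster 11. Then 16 of 46 tested members were higher and 10 lower in D1, against 12.8% and 12.9% of all genes tested. Kcnh5 lost its call, with a log2 difference of -0.05 (edgeR adjusted p = 0.745), and Kcnt2 and Kcnn1 no longer passed the filter on low counts. Kcnh7 fell from 0.37 to 0.13 and Kcnk7 from 0.46 to 0.25, and both were still called. Kcnb2 stayed at 0.89 and Kcnk12 at 1.09, and the differences of Kcng3, Kcng1, Kcnd3, Kcna2 and Kcnk4 were called with the same sign.

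Clusters within a class differed in these genes as well. Within the D2 class, 31 of 32 tested members differed between clusters 2, 8, 11 and 26, against 72.3% of all genes tested. Without the filter on low counts 52 of 76 differed, against 43.4% of all genes. The exception, named after its value was seen, was the Kir2 gene Kcnj12. For each of the 5 members with the lowest p, cluster 11 had the highest or the lowest mean. Kcna4 averaged 747 ± 60.6 CPM (lowest 572, median 751, highest 883) in cluster 2, 682 ± 118 in cluster 8, 721 ± 129 in cluster 26 and 226 ± 56.3 CPM (lowest 93.8, median 229, highest 406) in cluster 11 (edgeR adjusted p = 1.2e-93). No value of cluster 11 reached those of cluster 2. Kcnh7 was at 76.6 ± 16.7, 79.2 ± 29.4 and 83.2 ± 32.5 in clusters 2, 8 and 26 and at 9.11 ± 5.95 CPM (lowest 0, median 9.32, highest 24.3) in cluster 11. It passed the filter mainly through clusters 2, 8 and 26, where it is higher, so this difference is a description with no p. Here too the ranges of clusters 2 and 11 did not overlap.

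Kcnh5 had the opposite order in D2 clusters, with 11.9 ± 5.48 CPM in cluster 2, 19.0 ± 16.8 in cluster 8, 10.1 ± 13.1 in cluster 26 and 72.8 ± 26.3 CPM (lowest 26.4, median 69.3, highest 134) in cluster 11. It passed the filter mainly through cluster 11, where it is high, so this difference is a description with no p. Kcnt2, which did not pass the filter for this comparison and was not tested in it, averaged 2.49 ± 1.52 in cluster 2 and 40.0 ± 17.8 CPM (lowest 0, median 37.4, highest 79.4) in cluster 11. Kcnj2 averaged 273 ± 29.8, 195 ± 65.3, 146 ± 40.7 and 326 ± 78.2 in clusters 2, 8, 11 and 26 (edgeR adjusted p = 2.9e-42). The beta subunit gene Kcnab3 averaged 19.5 ± 8.45 in cluster 2 and 61.3 ± 18.8 in cluster 11. These traits were not particular to cluster 11. The eccentric class, described above, also had less Kcna4 and Kcnj2 and more Kcnh5, Kcnt2 and Kcnab3 than the D1 and D2 classes. Cluster 8 was shallower, with a relative depth of 0.759, and 26.0% of its nuclei came from 1 animal.

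Eccentric neurons split into cluster 5, led by Foxp2, Otof and Tac2, and cluster 10, led by Col14a1, Shisa8, Gabrq and Pcdh8. Of 36 tested members 29 differed, against 52.9% of all genes, and without the filter 48 of 74, against 32.9%. Kcnh5 averaged 24.4 ± 13.8 CPM (lowest 0, median 19.9, highest 52.0) in cluster 5 and 381 ± 88.3 CPM (lowest 119, median 385, highest 529) in cluster 10. It passed the filter mainly through cluster 10, where it is high, so this difference too is a description. Kcnj3, the G protein-gated rectifier, averaged 32.1 ± 10.6 CPM (lowest 14.9, median 31.3, highest 63.0) and 149.8 ± 39.0 CPM (lowest 67.8, median 149, highest 245) (edgeR adjusted p = 5.2e-42). Neither gene's values overlapped between the clusters. Kcnh4, Kcna1 and Kcnv1 went the other way. Kcnh4 averaged 215 ± 53.1 in cluster 5 and 70.5 ± 32.7 in cluster 10 (edgeR adjusted p = 1.1e-36), Kcna1 726 ± 62.4 and 426 ± 78.2, and Kcnv1 248 ± 45.8 and 105 ± 37.1. So the mean level of the eccentric class was an average of unlike clusters for these genes.

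**Figure D4:**
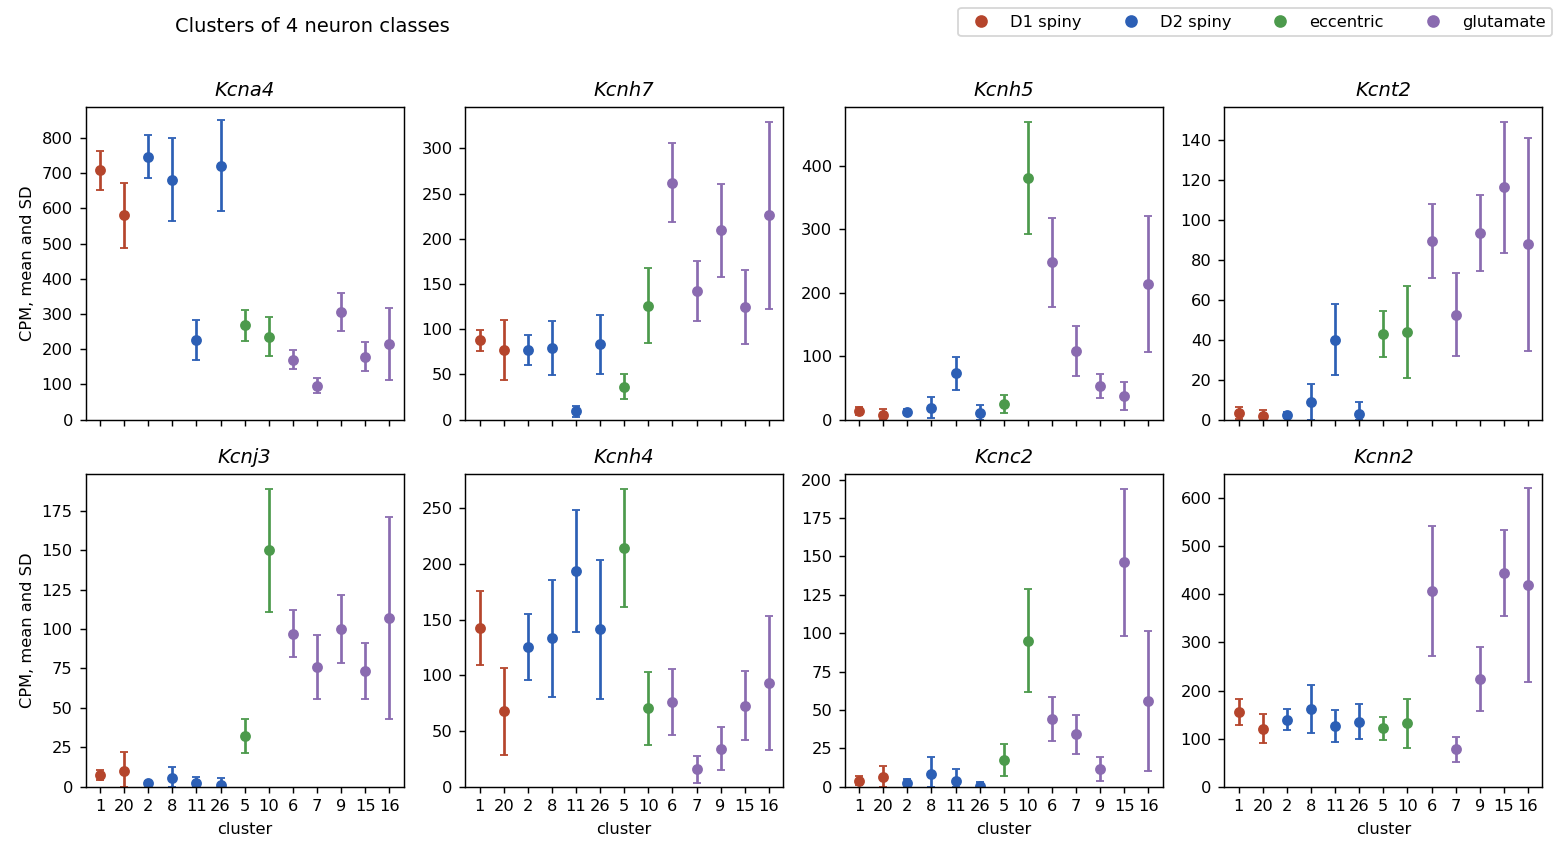
Levels of 8 members in the clusters of the D1, D2, eccentric and glutamate classes in CPM, as mean ± SD over animals, with lower bars stopped at 0. Cluster 11 is low for Kcna4 and Kcnh7 and high for Kcnh5, and cluster 10 is high for Kcnh5 and Kcnj3.

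D1 nuclei formed cluster 1 and a smaller cluster 20, which was led by Dlk1 and by immediate early genes (Fosb, Npas4, Nr4a3 and Fos). Of 36 tested members 20 differed, against 29.7% of all genes. Kcna3 averaged 132 ± 23.3 CPM (lowest 86.0, median 132, highest 211) in cluster 1 and 222 ± 57.0 CPM (lowest 134, median 215, highest 449) in cluster 20 (edgeR adjusted p = 9.2e-27). Kcnh4, Kcnv1, Kcnk2 and Kcna4 were lower in cluster 20, at 67.7 ± 39.1, 125 ± 45.2, 46.8 ± 26.1 and 581 ± 92.5 against 143 ± 33.0, 206 ± 41.4, 98.5 ± 13.6 and 708 ± 56.1 in cluster 1. All 5 genes had overlapping ranges. The D2 cluster 26, also led by immediate early genes, had Kcna4 at 721 ± 129.

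In glutamate neurons, 47 of 48 tested members differed between clusters 6, 7, 9, 15 and 16, but so did 94.3% of all genes. The exception, named after its value was seen, was the leak channel gene Kcnk12. Kcnh5 ranged from 37.2 ± 21.8 CPM in cluster 15 to 248 ± 70.1 in cluster 6 (edgeR adjusted p = 3.0e-89). The SK gene Kcnn2 was at 77.8 ± 26.1 in cluster 7 and 444 ± 89.4 in cluster 15, and the Kv3 gene Kcnc2 at 11.6 ± 8.02 in cluster 9 and 146 ± 47.8 in cluster 15. Kcng3 ranged from 0.706 ± 1.30 in cluster 9 to 45.0 ± 12.7 in cluster 6, and Kcnq5 from 106 ± 31.5 in cluster 9 to 308 ± 65.3 in cluster 15. In cluster 16, 62.2% of nuclei came from 1 animal, and all values for the class rest on animals with unlike shares of these clusters.

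The somatostatin class joined unlike interneurons, as Kcnc2 showed. Cluster 18, also led by Pvalb, had 971 ± 131 CPM (lowest 696, median 977, highest 1189), and cluster 25, led by Npy, Nos1 and Chodl, had 77.9 ± 35.4 CPM (lowest 31.4, median 71.5, highest 174). The ranges did not overlap, and no test was run between these clusters. The unnamed cluster 22, led by Pvalb and Nefh, had Kcna2 at 588 ± 172, Kcnc1 at 519.5 ± 186 and Kcnc2 at 388 ± 193 CPM (n = 34). Kcnq1, a Kv7 gene best known from heart and epithelium and chosen here after its values were seen, averaged 41.4 ± 34.8 in the unnamed cluster 23, led by Gpr101 (n = 25), and at most 2.51 in any other cluster.

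The Vip or Lamp5 class held unlike interneurons too. In the finer clustering, the cluster led by Vip had 7702 ± 2910 CPM of Vip (n = 26), and the unnamed cluster led by Crabp1 had 139 ± 224 CPM (n = 38). Kcnc2 averaged 322 ± 107 CPM in the former and 378 ± 102 in the latter, and Kcns3 35.7 ± 24.2 and 47.9 ± 22.1. The SK gene Kcnn2 averaged 765 ± 219 and 413 ± 139.5 CPM, Kcnb2 92.3 ± 53.7 and 42.9 ± 17.4, Kcnc1 294 ± 75.6 and 472.5 ± 99.6, and Kcna3 383 ± 78.2 and 499 ± 78.2. No test was run between these clusters. The comparison of the class with spiny neurons in that clustering holds the Vip cluster alone, and all 12 differences of the class that were recomputed there kept their call.

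No potassium channel gene differed between mates and peers by the test. This comparison asks whether the type of partner goes with expression in the accumbens. In sums over all nuclei, 0 of 68 members were called for mate minus peer, against 0% of 13704 genes. Within classes, 0 of 311 pairs of a member and a class were called, against 0% of 79832 pairs of a gene and a class, over 12 classes. At an unadjusted p under 0.05 there were 5 of 68 members (7.35%, against 7.17% of all genes) and 24 of 311 pairs (7.72%, against 5.10%). In an all-nuclei sum, fewer nuclei of a class and less RNA per nucleus cannot be told apart. DESeq2 on the same counts also called 0 members. A p that misses the threshold does not show that the groups were alike, but the intervals were narrow for many members. The 95% interval of the log2 difference lay within 0.5 on either side of 0 for 60 of 68 members over all nuclei, 47 of 53 in D1, 42 of 49 in D2, 41 of 47 in eccentric and 52 of 54 in glutamate nuclei.

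Over all nuclei, the lowest p values among members belonged to M current and ERG genes. Kcnq3 averaged 73.2 ± 10.9 CPM (lowest 54.5, median 71.1, highest 99.6) in mates and 63.0 ± 11.5 CPM (lowest 48.9, median 60.9, highest 95.7) in peers (log2 difference 0.22, SE 0.08, interval 0.06 to 0.37, unadjusted p = 0.00738, edgeR adjusted p = 0.683), with 19 of 22 mates above the mean of peers. Kcnh2, the ERG gene also known from heart, averaged 41.0 ± 5.91 CPM (lowest 32.6, median 41.0, highest 50.8) and 36.1 ± 4.08 CPM (lowest 27.2, median 35.7, highest 43.4) (log2 difference 0.18, SE 0.07, interval 0.05 to 0.31, unadjusted p = 0.00779, edgeR adjusted p = 0.683), with 16 of 22 mates above the mean of peers. Kcnq5 averaged 257 ± 28.0 and 233 ± 34.6 (log2 difference 0.14, SE 0.06, interval 0.02 to 0.26, unadjusted p = 0.0259, edgeR adjusted p = 0.685). All 3 genes had overlapping groups and failed the correction.

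Among classes, the lowest p belonged to Kcnc1 in eccentric neurons, at 136 ± 30.4 CPM (lowest 71.5, median 137, highest 207) in mates and 108 ± 16.3 CPM (lowest 75.9, median 109, highest 136) in peers (log2 difference 0.30, SE 0.08, interval 0.14 to 0.46, unadjusted p = 0.000529, edgeR adjusted p = 0.872), with 20 of 22 mates above the mean of peers. Kcnn2 in astrocytes averaged 191 ± 82.9 CPM (lowest 77.0, median 174, highest 366) and 133 ± 56.7 CPM (lowest 81.3, median 104, highest 267) (log2 difference 0.52, SE 0.18, interval 0.16 to 0.88, unadjusted p = 0.00517, edgeR adjusted p = 0.774). Kcna3 in D1 neurons averaged 149 ± 29.2 and 128 ± 19.0 (log2 difference 0.17, SE 0.07, interval 0.04 to 0.31, unadjusted p = 0.0138, edgeR adjusted p = 0.987). None of these passed the correction, and the groups overlapped in each.

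**Figure D5:**
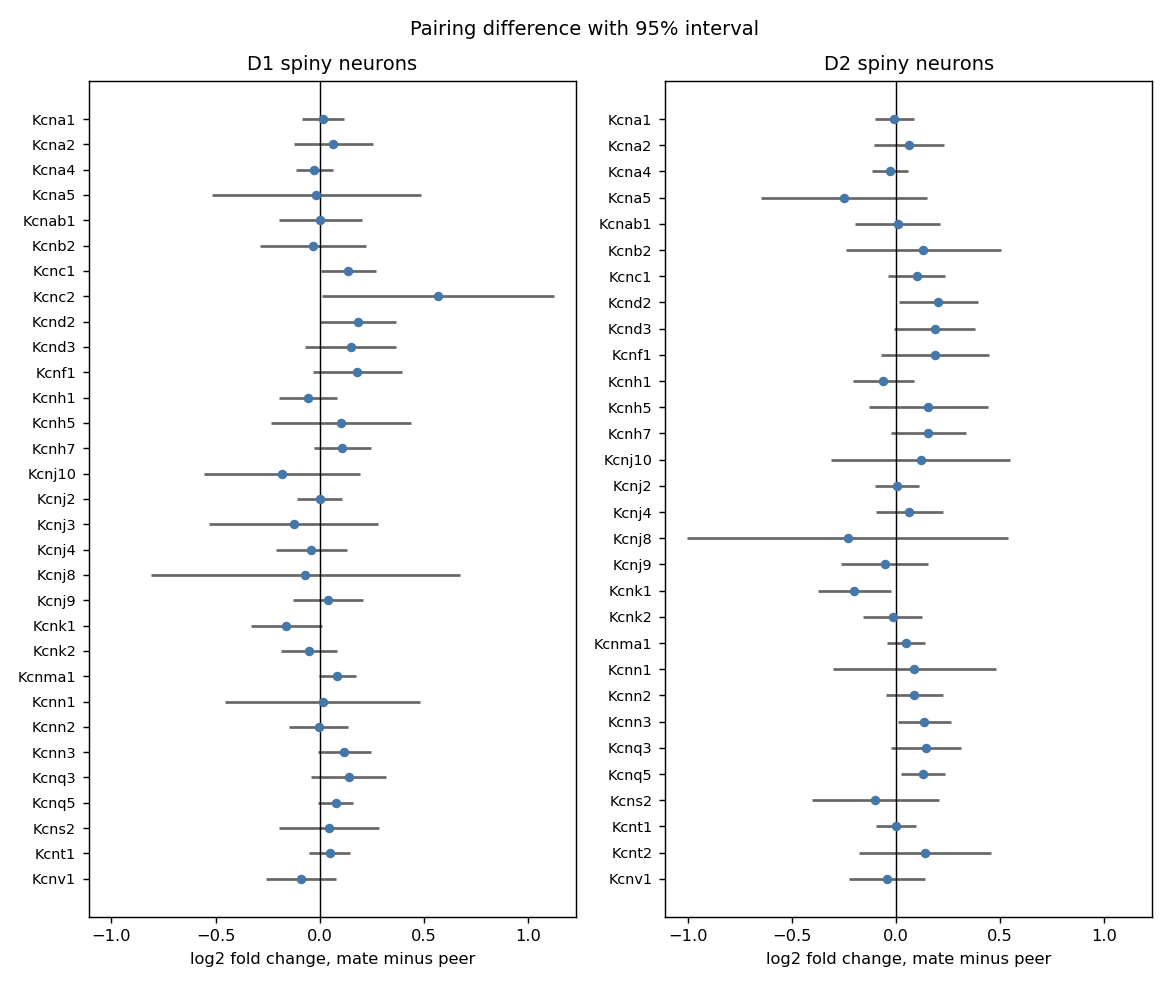
Log2 difference of mates minus peers with its 95% interval for members of the core list in D1 and D2 nuclei. Points lie on both sides of 0, and none of the members was called.

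Among females alone, 0 of 68 members were called, against 0% of all genes, and 5 had an unadjusted p under 0.05 (7.35%, against 7.54% of all genes). Kcnq3 was again first, at 75.7 ± 12.7 in female mates and 60.7 ± 9.03 in female peers (log2 difference 0.32, SE 0.11, interval 0.09 to 0.55, unadjusted p = 0.00681, edgeR adjusted p = 0.653), with 11 of 11 female mates above the peer mean. Among males alone, 0 of 68 were called, against 0% of all genes, and 1 had an unadjusted p under 0.05 (1.47%, against 1.58% of all genes). That was Kcnh2, at 42.7 ± 5.53 in male mates and 36.5 ± 4.41 in male peers (log2 difference 0.21, edgeR adjusted p = 0.9999).

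The difference between the sexes in the pairing difference was tested directly. Over all nuclei 0 of 68 members were called, against 0% of all genes, and none had an unadjusted p under 0.05. Within classes 0 of 311 pairs were called, against 0% of all pairs, with 8 at an unadjusted p under 0.05 (2.57%, against 2.66% of all pairs). The lowest p belonged to Kcnd3 in somatostatin interneurons, with 50.7 ± 20.0 in female mates, 27.4 ± 14.1 in female peers, 39.2 ± 12.7 in male mates and 50.2 ± 25.4 in male peers (log2 difference 1.09, unadjusted p = 0.00415). It did not pass the correction.

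Between females and males, 0 of 68 members were called over all nuclei, against 0.0219% of all genes (3 of 13704). Within classes 0 of 311 pairs were called, against 0.0251% of all pairs. Kcnn2 had the lowest p over all nuclei, at 175 ± 24.3 in females and 212 ± 66.9 in males (log2 difference -0.27, SE 0.10, interval -0.47 to -0.07, unadjusted p = 0.0100, edgeR adjusted p = 0.522). Male mate 2, where glutamate neurons made up 43.9% of the nuclei, had the highest value, 427 CPM, and without it the log2 difference was -0.20 (edgeR adjusted p = 0.744). Kcnj10 in D2 nuclei, where its level is low, had the lowest p within classes, at 3.72 ± 1.62 and 6.20 ± 4.12 (log2 difference -0.78, SE 0.22, interval -1.21 to -0.34, unadjusted p = 0.000831, edgeR adjusted p = 0.490). Male peer 1 had the highest Kcnj10 value there, 21.52 CPM from 10 UMIs, and the next male peer had 8.642. The test was not repeated without that animal. At an unadjusted p under 0.05 there were 3 of 68 members (4.41%, against 8.19% of all genes) and 15 of 311 pairs (4.82%, against 5.09%). On simulated data of the same size, the test recovered 171 of 198 genes changed 1.5-fold for mate minus peer over all nuclei.

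The spread between animals was measured as the coefficient of variation left after counting error is taken off. It had a median of 14.6% over 41 members in D1 and 15.5% over 39 members in D2 nuclei, and 19.3% over 63 members in all nuclei. In astrocytes the median was 25.8% over 7 members, and the spread reached 53.2% in glutamate neurons and 83.1% in oligodendrocytes. These medians rest on different members and do not compare the classes. In the same 39 members, the spread in all nuclei was larger than that in D1 for 29 and larger than that in D2 for 24. In D1 it was largest for Kcnab3 (29.7%), Kcnh5 (28.2%), Kcnh6 (25.3%), Kcnk7 (24.4%) and Kcnd2 (24.0%). Without male mate 2, Kcnd2 had 20.3% and was no longer among the 5, Kcnk6 (22.6%) was, and Kcnh5 (28.1%) was first, before Kcnh6 and Kcnab3 (27.4%). In D2 it was largest for Kcnh5 (29.1%), Kcnh6 (28.4%), Kcns2 (26.2%), Kcnab3 (23.8%) and Kcng3 (22.5%). So Kcnh5, Kcnh6 and Kcnab3 were among the 5 in both classes, with and without male mate 2. The part of unlike cluster shares in this spread was not tested.

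Genes for partner proteins of these channels, from a list of 30 of which 28 were found, followed the classes too. In endothelial nuclei Abcc9, which encodes the sulfonylurea receptor that pairs with the Kcnj8 product, was 7.51 log2 higher than in spiny neurons. It averaged 218 ± 100.5 CPM (n = 21) in the endothelial-like and 247 ± 284 CPM (n = 10) in the mural or fibroblast-like cluster of the finer clustering. In somatostatin and Vip or Lamp5 interneurons, Kcnmb2, a BK beta subunit gene, was 5.59 and 4.88 higher, and Kcnip1, a Kv4 partner, was 3.01 and 3.32 higher. Kcnip2, a Kv4 partner, was lower in cholinergic interneurons (-5.38), where Abcc8, whose product pairs with that of Kcnj11, was called higher. In eccentric neurons Lrrc55, a BK gamma subunit gene, was 2.17 higher and Kcnip4 1.80 higher. Abcc9, Kcnmb2, Kcnip1 and Kcnip4 did not pass the filter for D1 against D2, so their differences too are descriptions. Rgs9, which ends G protein signals and is known from the striatum, was lower in glutamate neurons (-5.00) and in somatostatin and Vip or Lamp5 interneurons (-4.99 and -5.88). Of 14 tested genes of the list, 2 were higher and 8 lower in D1 than in D2 (15.6% and 14.3% of all genes), led by Abcc8 (0.62) and Lrrc55 (-0.81). In astrocytes, oligodendrocytes and microglia all 14 tested genes were lower, against 44.6%, 43.9% and 49.8% of all genes. Precursors departed from this: Kcnip3 and Lrrc38 were higher there, Lrrc55 was not called, and the other tested genes were lower. Lrrc38 also did not pass the filter for D1 against D2. For pairing and for sex 0 of 100 pairs of a gene of the list and a class were called (0% and 0.0251% of all pairs), with 4 and 6 at an unadjusted p under 0.05 (5.10% and 5.09% of all pairs).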

How the data were processed

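Single nuclei of the accumbens of 40 animals were sequenced on the 10X Genomics platform, and the authors deposited raw UMI counts per gene and barcode, made with Cell Ranger 3.1.0 per the submitters' processing notes. Genome build, annotation release and barcode selection are not given in the sources used here. All 78 members matched a RefSeq symbol.

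Barcodes were kept (185995) from 500 UMIs upward where mitochondrial genes gave no more than 5% of them, and 7608 (4.09%) were removed as doublets, scored against simulated doublets at an assumed rate of 0.8% per 1000 barcodes. Nuclei were clustered on 2000 variable genes without members, 30 principal components and 15 neighbours (leidenalg 0.10.2, resolution 1), which gave 35 clusters. The naming rule was set after the clusters' leading genes had been seen and before comparisons between groups. The members and gene lists were chosen with earlier results of these data known.

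Counts were summed per animal and class, with animals as replicates, and libraries held from 2907000 to 13040000 UMIs in kept nuclei. edgeR 4.0.16 (R 4.3.3) was run with TMM factors and its filter on low counts, with 1 mean per group for pairing and sex, and with the animal as a block between classes or clusters. Group tests needed at least 6 animals per group in a class. P values were adjusted by the Benjamini-Hochberg method over all genes tested. The genes named are a core list, the 6 largest called differences per direction and class, the 5 lowest p per cluster test, the 3 lowest p per group comparison, the 5 largest spreads in D1 and D2, and the 3 largest called differences per direction of the partner genes; some of these genes are not reported here. Alternatives were DESeq2 1.42.0, RLE size factors, no filter on low counts, doublets kept, at least 1000 UMIs, resolution 2, blocks of 10 label numbers, and leaving out male mate 2 or female peer 1. Scripts were tested on simulated data.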

Additional observations from a re-analysis of the deposited data

Results flagged for a closer look

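In 5 of 95 sets of a member, a group and a class or all nuclei, the value of 1 animal lay far outside the rest of its group, which is about the 1 in 20 that chance gives. Kcnd2 over all nuclei was 142.2 CPM in female peer 5 (1346 UMIs), and the next highest female peer had 102.3. Kcnk2 over all nuclei was 72.79 CPM in the same animal (689 UMIs), followed by 56.43. Kcnq3 over all nuclei was 95.71 CPM in male peer 6 (801 UMIs), followed by 73.26. Kcnj8 over all nuclei was 6.643 CPM in female peer 1 (25 UMIs), followed by 4.12. Kcnj10 in D2 nuclei was 21.52 CPM in male peer 1, from 10 UMIs, followed by 8.642. Female peer 1 was also the library with the most nuclei in unnamed clusters and the highest mitochondrial share; the part of either in its Kcnj8 level was not tested.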

How the results depend on the processing

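Of the counts that answer a comparison, 278 values under the alternatives stayed within 1.5 times the main count and 8 did not. Without a filter on low counts, more members were higher than in spiny neurons: 15 of 77 in astrocytes, 12 of 78 in endothelial nuclei, 11 of 77 in immature neurons, 9 of 77 in microglia and 12 of 77 in oligodendrocytes, against 32.6%, 27.5%, 19.5%, 24.2% and 26.6% of all genes. The same setting tested more members and gave 52 of 76 that differed between D2 clusters and 48 of 74 between eccentric clusters, against 43.4% and 32.9% of all genes. With at least 1000 UMIs per nucleus, 7 of 50 members were higher in oligodendrocyte precursors, against 22.1% of all genes. The counts for pairing, sex and their interaction stayed at 0 under every alternative run. Of the named results, 1402 values kept their call and 6 lost it, and none changed sign while called. They were Kcnh5 in D1 minus D2 without cluster 11 (an alternative chosen after seeing the data, -0.05), Kcnj2 in microglia with RLE size factors (0.13) and with no filter (0.05), Kcnn1 in astrocytes with at least 1000 UMIs (0.45, adjusted p = 0.167) and with no filter (0.33, adjusted p = 0.061), and Kcnab3 in immature neurons with no filter (0.34, adjusted p = 0.082). The cause was not tested. No paired analysis was possible because replicate numbers here only count the samples of a group in order and the labels do not name partners. In endothelial nuclei and microglia 2 and 3 members could be tested between groups, in immature neurons none, and cholinergic interneurons were not tested for pairing or sex, because male mates had 5 animals with enough nuclei. On simulated data the cholinergic contrast recovered 44.2% of genes changed 1.5-fold. The simulated counts took the real class differences into their spread, so this share does not measure the sensitivity of the real contrast.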

Other observations

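The low Kcnj8 level of spiny neurons varied between animals, and it did so alike in both classes. The gene was picked after its values had been seen, so the relation is given as a description with no test. Across 40 animals, the levels in D1 and D2 nuclei had a Pearson r of 0.760 and a Spearman rho of 0.767. Without the 2 animals farthest from the median, r was 0.759. Within groups, r was 0.784 in female mates, 0.384 in female peers, 0.942 in male mates and 0.840 in male peers. The endothelial level, measured in 30 animals, had an r of 0.083 with that in D1 and of 0.047 with that in D2. The relation was not particular to this gene: over 47 other members with at least 300 UMIs in each class, r between D1 and D2 ranged from 0.170 to 0.871 with a median of 0.604, and Kcnj8 ranked 15 among the 48. D1 and D2 values of an animal share a library and its depth, and the part of that in the relation was not tested. Cluster 11 of the D2 class had 2 Kcnj8 UMIs in all animals together.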
